A study of Mus musculus with 10 samples.

Results

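Malat1, Neat1, Snord118, Terc, Rn7sk, Rmrp and Rpph1 are 7 genes whose RNAs act in the nucleus without being translated, out of 49554 genes of the RefSeq table on chromosomes 1 to 19 and X. They were chosen by name, with earlier peak calls at them known, and a peak was assigned to a gene when its summit lay inside the gene or within 5 kb of it. The values below therefore describe these genes and were not tested. Of the 7, Malat1, Neat1, Snord118 and Terc are read by RNA polymerase II, and Rn7sk, Rmrp and Rpph1 by RNA polymerase III. How much RNA each gene made was not analysed here.

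The peaks came from chromatin immunoprecipitation with sequencing (ChIP-seq) on mouse embryonic stem cells held in 2i/LIF, a medium that keeps such cells in the naive state of pluripotency. The cells carried an HA tag, a short peptide recognised by an antibody, on SOX15 or on SOX2 through a knock-in. There were 3 SOX15-HA libraries, 2 SOX2-HA libraries and 5 input libraries; values at the genes come from the 5 ChIP lists, and those of the inputs were not analysed. The labels give no clone, passage or strain. Nor do they tell if replicates of a factor were grown apart, so their spread may be technical. The SOX15 lists held 217, 672 and 437 peaks and the SOX2 lists 2676 and 4817. SOX2 peaks lay within 5 kb of Pou5f1, Nanog, Esrrb and Sox2 in both SOX2 libraries, 4 of the 5 stem cell genes looked up. Klf4, the remaining gene, had no peak in any library. Of all genes but the 7 described here, 3.78% had a summit that near in both SOX2 libraries.

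As background, SOX2 and SOX15 are related proteins that bind DNA through an HMG box, and SOX2 is a core factor of pluripotency. Malat1 RNA gathers in nuclear speckles, where splicing factors are stored. Its 3′ end is cut off as a small tRNA-like RNA, mascRNA. Neat1 RNA is the scaffold of paraspeckles, and the gene gives a short and a long RNA from a shared start. Snord118 encodes the U8 small nucleolar RNA, which is needed to process the large ribosomal RNA, and Terc encodes the RNA template of telomerase. The 7SK RNA of Rn7sk holds the elongation kinase P-TEFb in an inactive complex. Rpph1 encodes the RNA of RNase P, which trims the 5′ ends of tRNAs, and Rmrp the RNA of RNase MRP, which cleaves precursor ribosomal RNA. The genes of these 3 RNA polymerase III products keep their promoters upstream of the transcribed part, unlike tRNA genes.

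All 5 libraries had peaks at the same 3 of 7 genes, Malat1, Neat1 and Snord118, and none at the other 4. By polymerase this is 3 of 4 genes read by RNA polymerase II and 0 of 3 read by RNA polymerase III. Together the lists held 34 peaks at the 3 genes, with 10, 9 and 5 in SOX15 replicates 1, 2 and 3 and 6 and 4 in SOX2 replicates 1 and 2. Of all 49547 other genes, 0.66%, 1.5% and 1.2% had a summit within 5 kb in SOX15 replicates 1, 2 and 3, and 4.27% and 6.76% in SOX2 replicates 1 and 2. A summit in at least 2 SOX15 libraries was found at 0.761% of other genes, and in both SOX2 libraries at 3.78%. Since peak calls at these genes were known when they were chosen, nothing is read from the 3 of 7 against these shares. Nor is anything read from the 0 of 3 genes of RNA polymerase III.

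The 3 genes differed in how high their strongest peak stood in each list. The authors deposited a fold enrichment for each peak, which is a linear ratio over the caller's background and holds within 1 list. It is given below with the percentile of the peak in its own list, where 100 is the highest fold. Snord118 stood near the top of every SOX15 list, Malat1 in the upper part and Neat1 between percentiles 31.3 and 64.3. In SOX2 replicate 2 the order of Malat1 and Neat1 was turned round.

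**Figure D1:**
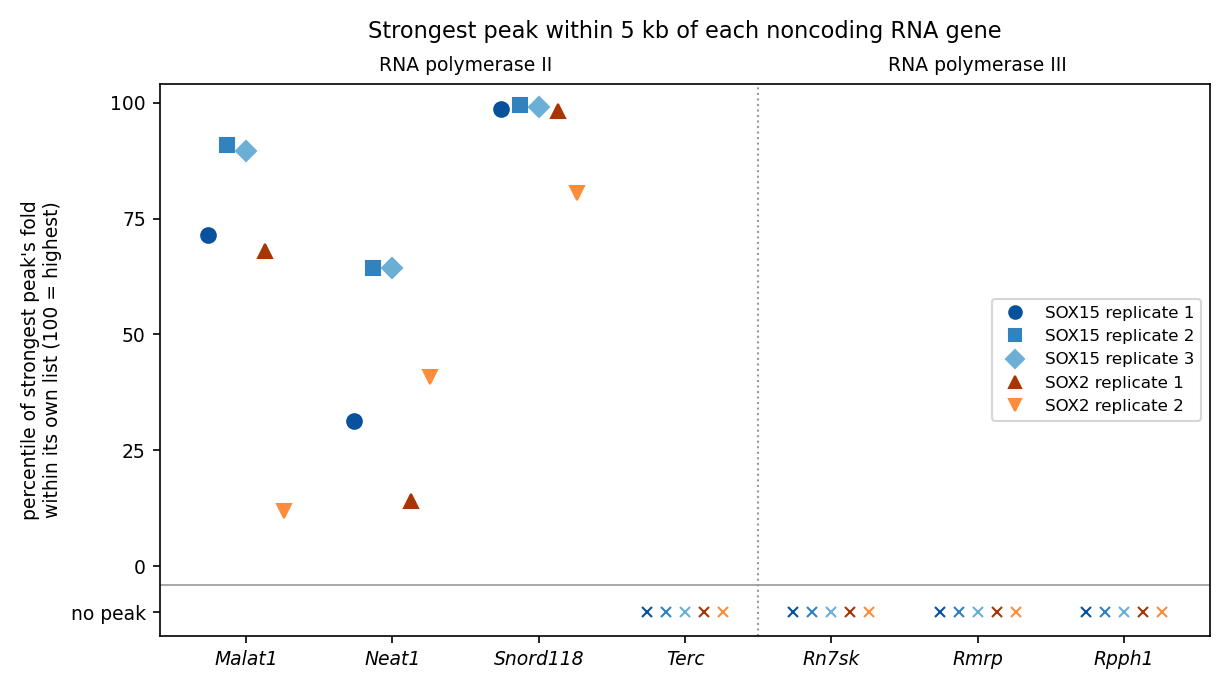
Percentile of the strongest peak within 5 kb of each gene (vertical axis, no unit, 100 being the highest fold of that list) in the 5 libraries, with SOX15 in blue and SOX2 in orange; a cross marks no peak. Snord118 lies between 98.6 and 99.4 in the SOX15 lists, and Terc, Rn7sk, Rmrp and Rpph1 have crosses throughout.

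Snord118 (chromosome 11, 69073426 to 69073562 in mm10, 137 bp) had 1 peak in each library, and each covered the whole gene. The fold was 52.6, 56.0 and 55.4 in SOX15 replicates 1, 2 and 3, against 28.5 and 13.2 in SOX2 replicates 1 and 2. The peak ranked 4 of 217, 5 of 672 and 5 of 437 in the SOX15 lists, and 51 of 2676 and 944.5 of 4817 in the SOX2 lists, where a decimal marks a tie. The mean percentile was 99.0 ± 0.396 for SOX15 (SD, n = 3) and 89.3 ± 12.5 for SOX2 (SD, n = 2). The SOX15 libraries were thus alike at this gene, while the SOX2 libraries lay apart from each other, with replicate 2 the low one.

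The called summits at Snord118 lay just outside the gene, within peaks that covered all of it. The offsets were small beside the peak widths given below, so they do not show that binding was off the gene. They lay 41, 55 and 46 bp beyond its higher-coordinate end in SOX15 replicates 1, 2 and 3, and 81 and 29 bp beyond it in SOX2 replicates 1 and 2. The neighbouring gene Tmem107, which encodes a membrane protein of the ciliary transition zone, ends 132 bp below Snord118 and is read toward it. The table gives no strand for Snord118, so which end is the 3′ end cannot be told from it. Peak widths were 827, 820 and 673 bp in the SOX15 libraries and 788 and 585 bp in the SOX2 libraries. No SOX15 or SOX2 library had a further peak within 5 kb, so this was the single called site there.

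Malat1 (chromosome 19, 5795690 to 5802672, read from the higher to the lower coordinate) carried the most peaks of the 7 genes in each library but SOX2 replicate 2. SOX15 replicates 1, 2 and 3 had 7, 7 and 3 peaks there, against 3 and 1 in SOX2 replicates 1 and 2. In SOX15 replicate 1 they made up 3.23% of the list, and 0 other genes had as many summits within 5 kb. In SOX15 replicate 2 only Eef1a1, a translation elongation factor gene named after its value was seen, had as many. In SOX15 replicate 3, 56 other genes had at least 3 summits, 32 of them on chromosome 13. The peaks of SOX15 replicates 1, 2 and 3 covered 2674, 2318 and 1344 bp, and those of SOX2 replicates 1 and 2 covered 1535 and 475 bp.

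Merging the Malat1 peaks of the 5 lists where they overlapped gave 7 sites, of which the site at the 5′ end was in all 5 libraries (5802189 to 5802851). Its summits lay 82, 125 and 28 bp inside the gene in SOX15 replicates 1, 2 and 3, and 67 and 41 bp inside it in SOX2 replicates 1 and 2. The fold there was 11.3, 9.05 and 10.3 in the SOX15 libraries, against 10.3 and 5.59 in the SOX2 libraries. The promoter is shown because each library had a peak over its start.

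The 300 bases below run from 250 bases before the start of Malat1 to 50 after it (RefSeq, GRCm38.p6, chr19:5802623-5802922, minus strand, 5′ to 3′). Capitals mark the letters TGACGT, the core that CREB and ATF factors read, on either strand.
Malat1 promoter: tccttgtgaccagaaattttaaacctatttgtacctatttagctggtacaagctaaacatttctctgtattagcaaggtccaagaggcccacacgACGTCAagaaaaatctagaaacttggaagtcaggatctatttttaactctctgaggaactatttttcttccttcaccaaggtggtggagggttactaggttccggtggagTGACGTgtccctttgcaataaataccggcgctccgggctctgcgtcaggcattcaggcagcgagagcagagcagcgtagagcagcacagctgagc
The window held 2 matches, the first at position 96 from its first base. Of 32851 RefSeq promoter windows of the same length, 7.51% held at least 1. The letters ACAAAG and ACAAT, which occur in sites of SOX factors, had 0 matches on either strand in this window, and were found in 18.7% and 31.0% of all windows. Such matches are a description of letters and say nothing about which factor was bound. The peaks also reach beyond this window into the gene, where the summits of SOX15 replicates 1 and 2 and SOX2 replicate 1 lay and the letters were not read.

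The second strong Malat1 site (5794704 to 5795853) ran from beyond the 3′ end of the gene to just inside it. By fold, the place of its strongest peak among the Malat1 peaks differed between the factors' lists. The site was called in the 3 SOX15 libraries and in SOX2 replicate 1. Its strongest summits lay 536, 563 and 605 bp beyond the 3′ end in SOX15 replicates 1, 2 and 3, and 400 bp beyond it in SOX2 replicate 1. In SOX15 replicate 1 the site also held a weaker peak, with its summit 8 bp inside the gene and a fold of 5.61. The mascRNA, 58 bp long, lies inside the gene, 234 bp before the 3′ end. In SOX15 replicates 1, 2 and 3 the strongest peak of the site had a fold of 12.8, 12.5 and 13.6, which was the highest at Malat1 in each. In SOX2 replicate 1 it had 5.82, lower than the 10.3 at the 5′ end, and SOX2 replicate 2 had no peak there.

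Within a list the values of both ends can be set against each other. The log2 ratio of the fold past the 3′ end over the fold at the 5′ end was 0.17, 0.47 and 0.40 in SOX15 replicates 1, 2 and 3 (mean 0.35 ± 0.16, SD, n = 3), and -0.83 in SOX2 replicate 1. By fold, SOX15 thus had the higher peak past the 3′ end in 3 of 3 libraries, and SOX2 had it at the 5′ end in 2 of 2, where 1 of them had no 3′ peak. By −log10 q this held in 1 of 3 SOX15 libraries. The −log10 q past the 3′ end was 37.4, 34.2 and 26.6 in SOX15 replicates 1, 2 and 3 and 7.31 in SOX2 replicate 1. At the 5′ end it was 41.3, 28.7 and 28.5 in SOX15 replicates 1, 2 and 3 and 32.7 in SOX2 replicate 1. The ratio was looked at after the peaks were seen and was not tested.

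Between the ends, Malat1 held weaker peaks that varied by library. SOX15 replicates 1, 2 and 3 had 4, 3 and 1 peaks between the sites at the ends, and SOX2 replicates 1 and 2 had 1 and 0. In SOX15 replicates 1 and 2 they gathered at 5797180 to 5798111 and at 5800913 to 5801483, where SOX15 replicate 3 had none. SOX15 replicate 3 had a single inner peak, 3699 bp into the gene, with a fold of 5.28. The inner peaks of the 5 libraries had folds of 5.28 to 6.57. SOX15 replicate 2 also had the peak farthest from the gene, 1493 bp past the 3′ end, with a fold of 5.11. Just outside the 5 kb limit lay 1 peak, in SOX2 replicate 2, 6021 bp before the 5′ end.

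**Figure D2:**
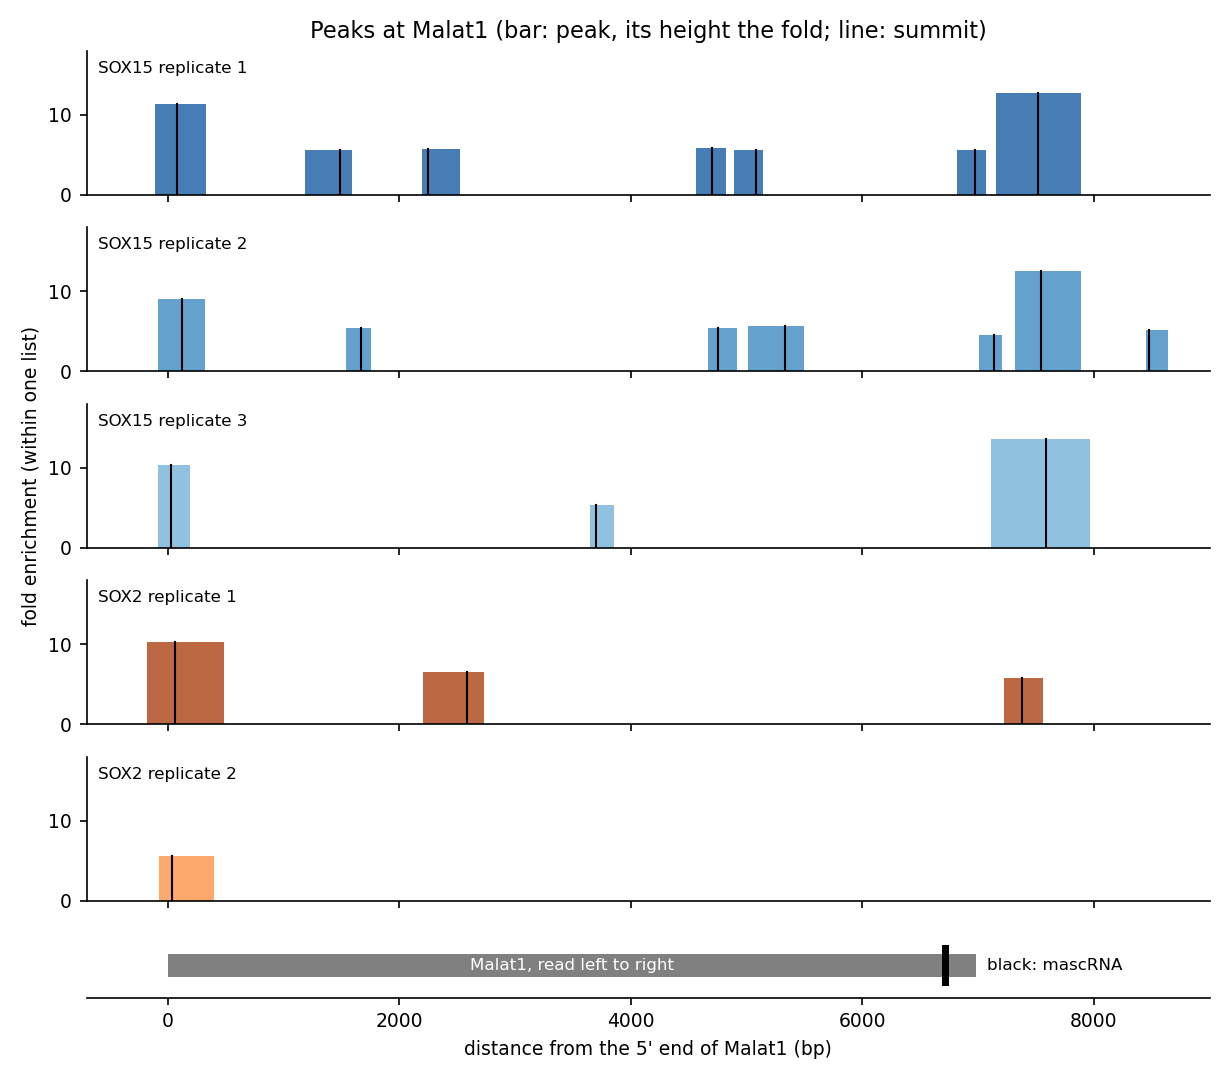
Peaks at Malat1 in the 5 libraries, with distance from the 5′ end in bp along the gene on the horizontal axis and the fold enrichment on the vertical axis; bars span peaks and lines mark summits. Each SOX15 library has its tallest bar past the 3′ end, at folds of 12.5 to 13.6, and both SOX2 libraries have theirs at the 5′ end.

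Neat1 (chromosome 19, 5824708 to 5845480) neighbours Malat1. It had fewer peaks than Malat1, and a lower strongest peak, in each library but SOX2 replicate 2. There it had more and its strongest was higher. SOX15 replicates 1, 2 and 3 had 2, 1 and 1, and SOX2 replicates 1 and 2 had 2 each. The strongest had a fold of 6.37, 6.09 and 7.28 in SOX15 replicates 1, 2 and 3, against 5.95 and 7.51 in SOX2 replicates 1 and 2. These lay at percentiles 31.3, 64.3 and 64.3 of the SOX15 lists, and 14.0 and 40.9 of the SOX2 lists. The percentiles of the groups overlapped.

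Of 3 merged Neat1 sites, 1 was in all 5 libraries (5841395 to 5842072), and it lay well inside the gene. Its summits were 3598, 3816 and 3896 bp from the higher-coordinate end in SOX15 replicates 1, 2 and 3, and 3708 and 3999 bp from it in SOX2 replicates 1 and 2. The fold at this shared site was 6.32, 6.09 and 7.28 in the SOX15 libraries, against 5.95 and 5.52 in the SOX2 libraries. The table gives no strand for Neat1. It is known to be read in the same direction as Malat1, which makes the higher-coordinate end its 5′ end. Where the short Neat1 RNA ends is not given in the table used here.

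A peak near that 5′ end was found in SOX15 replicate 1 and SOX2 replicate 1, with summits 142 and 217 bp inside the gene and folds of 6.37 and 4.08. The SOX15 peak spanned the start, and the SOX2 peak lay wholly inside the gene. SOX2 replicate 2 had a peak of its own 2730 bp inside, with a fold of 7.51. All Neat1 peaks lay within the part of the gene nearest to that end, and the rest of its 20773 bp had none. A peak covered the start of Malat1 in 5 of 5 libraries, and that of Neat1 in 1 of 5.

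**Figure D3:**
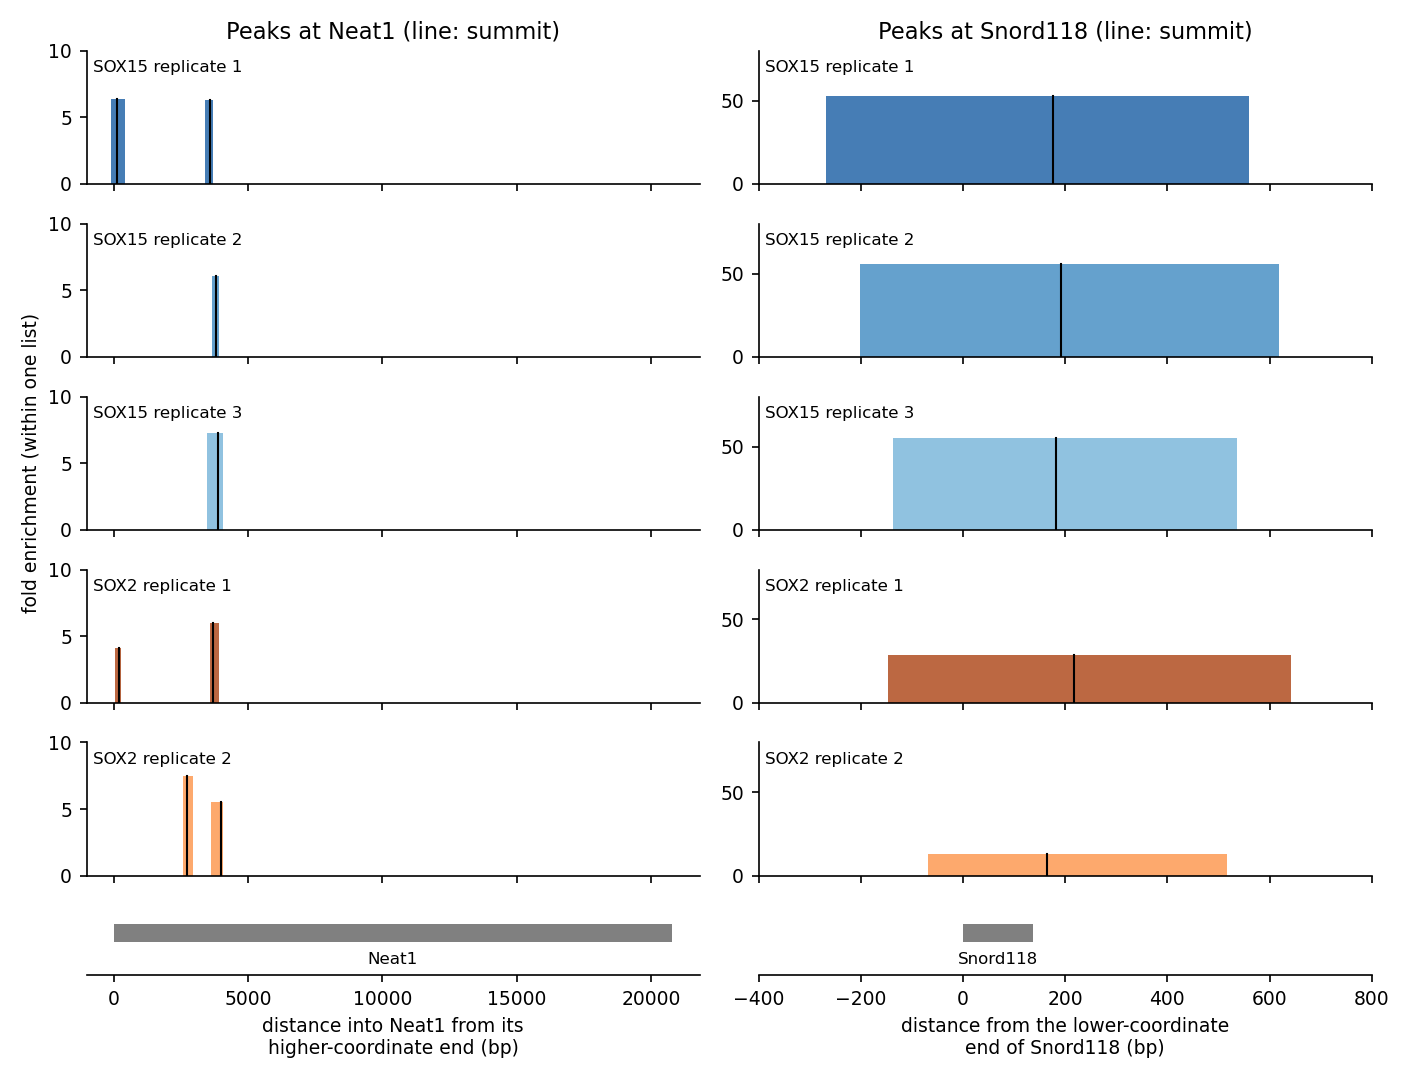
Peaks at Neat1 (left) and Snord118 (right) in the 5 libraries, with distance in bp from the named gene end on the horizontal axis and the fold enrichment on the vertical axis; lines mark summits. The shared Neat1 site sits 3598 to 3999 bp into the gene, and the Snord118 summits sit 165 to 217 bp from its lower end, just beyond the gene.

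Ranked by fold, the percentiles of Snord118 and Malat1 were higher in every SOX15 list than in either SOX2 list, and those of Neat1 were not. This order was lost when peaks were ranked by −log10 p. Each ranking took the strongest peak of a gene by its own measure, so the peaks compared can differ. For Malat1 the percentiles by fold were 71.4, 90.9 and 89.5 in SOX15 replicates 1, 2 and 3, against 68.0 and 11.9 in SOX2 replicates 1 and 2. By −log10 p they were 75.6, 88.5 and 89.2 in the SOX15 lists, against 83.6 and 20.5 in the SOX2 lists. For Snord118 those by −log10 p were 97.7, 99.0 and 98.6 in the SOX15 lists, against 99.5 and 89.5 in the SOX2 lists. Of the 153 other genes with a peak in all 5 lists, 35.3% had each SOX15 percentile by fold above both SOX2 percentiles. The lists differ in length, so a higher percentile does not show stronger binding. SOX2 replicate 2 had the lowest percentile at Malat1 and Snord118 by either ranking.

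The 3 RNA polymerase III genes had no peak, and the nearest summits lay from 27.1 kb to 68.2 Mb away. Of all other genes, 0.66% to 6.76% had a summit within 5 kb in a library. The 0 of 3 therefore shows nothing particular to these genes. How far other genes lie from their nearest peak was not looked at. At Rn7sk (chromosome 9, 78175302 to 78175633) the nearest summit was 298 kb away in SOX15 replicates 1 and 2 and 300 kb in SOX15 replicate 3, and 184 and 27.1 kb away in SOX2 replicates 1 and 2. At Rmrp (chromosome 4, 43492785 to 43493059) it was 68.2, 3.06 and 10.9 Mb away in SOX15 replicates 1, 2 and 3, and 1.43 Mb and 158 kb in SOX2 replicates 1 and 2. At Rpph1 (chromosome 14, 50807447 to 50807771) it was 2.25 Mb, 2.15 Mb and 120 kb away in SOX15 replicates 1, 2 and 3, and 1.26 Mb and 131 kb in SOX2 replicates 1 and 2. None of these lay near the 5 kb limit. The sources used here do not give how reads that map to several places were handled, and a gene with no called peak may still hold signal.

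Terc (chromosome 3, 96414437 to 96414833) was the single RNA polymerase II gene with no peak. The nearest summit was 71.4 kb away in each of the SOX15 libraries, where replicates 1, 2 and 3 had a fold of 15.6, 12.7 and 9.22. In SOX2 replicates 1 and 2 it was 70.8 and 85.7 kb away, with folds of 6.80 and 9.95. The SOX15 summits and that of SOX2 replicate 1 lay within 1 kb of Gm25890, and that of SOX2 replicate 2 within 1 kb of Gm24830. Both are snRNA genes, a class that holds the RNAs of the spliceosome and also Rn7sk.

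The DNA on the side of a neighbouring gene is printed for the RNA polymerase III genes, to give the letters beside loci where no library had a peak. For Rmrp and Rpph1 it is the stretch shared with Ccdc107 and with Parp2, a DNA repair enzyme gene, and for Rn7sk the stretch shared with the noncoding gene C920006O11Rik. Each is the plus strand, 5′ to 3′, from the promoter window of the neighbour (RefSeq, GRCm38.p6), limited to bases that lie in neither gene. The window does not reach Rn7sk, which ends at 78175633, or Rmrp, which ends at 43493059. The bases directly next to these genes are therefore not shown, and their letters were not read. Capitals mark letters found on either strand. They are ATTTGCAT, the octamer read by OCT factors; the SOX-type letters ACAAAG; the shorter SOX-type letters ACAAT; and the TATA box letters TATAAA. No match overlapped another.
Rn7sk side (chr9:78175664-78175913): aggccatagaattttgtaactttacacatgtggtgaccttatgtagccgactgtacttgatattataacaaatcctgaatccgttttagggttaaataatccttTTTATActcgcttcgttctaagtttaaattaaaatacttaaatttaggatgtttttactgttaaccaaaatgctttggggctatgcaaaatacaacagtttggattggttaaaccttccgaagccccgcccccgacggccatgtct
Rmrp side (chr4:43493115-43493339): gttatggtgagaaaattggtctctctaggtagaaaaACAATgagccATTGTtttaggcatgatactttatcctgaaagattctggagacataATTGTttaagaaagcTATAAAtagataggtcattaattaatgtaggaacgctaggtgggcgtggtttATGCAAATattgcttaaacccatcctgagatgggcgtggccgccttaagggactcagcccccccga
Rpph1 side (chr14:50807772-50807896): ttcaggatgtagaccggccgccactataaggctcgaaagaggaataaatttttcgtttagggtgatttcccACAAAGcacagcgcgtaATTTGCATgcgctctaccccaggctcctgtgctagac
The octamer had 1 match beside Rmrp and 1 beside Rpph1. The same positions of all 32851 windows held it in 1.51% and 0.892%. Beside Rmrp there were also 3 matches of ACAAT, which 26.0% of windows held, and 1 of TATAAA, which 10.6% held. Beside Rpph1 there was 1 match of ACAAAG, which 8.44% held. The stretch beside Rn7sk had 1 match of TATAAA, which 12.4% held, and 0 of the octamer, ACAAAG and ACAAT. The table held a promoter window for 1 of the 7 genes, Malat1.

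Of 9 further genes read by RNA polymerase III, 8 were found, and 0 had a peak in at least 2 SOX15 libraries while 1 had a peak in both SOX2 libraries. Beside 0.761% and 3.78% of all other genes, so short a list shows nothing particular to it. That was Rny3, a Y RNA gene, with folds of 6.17 and 7.65. Rny1, also a Y RNA gene, had 1 peak in SOX15 replicate 1 with a fold of 5.29. The 7SL RNA genes Rn7s1 and Rn7s2 and the rest of the genes found had none. Of 408 tRNA genes, 6, 5 and 5 had a summit within 5 kb in SOX15 replicates 1, 2 and 3 (1.47%, 1.23% and 1.23%), against 11 and 20 in SOX2 replicates 1 and 2 (2.70% and 4.90%). Over all other genes the shares were 0.66%, 1.5% and 1.2% for SOX15, against 4.27% and 6.76% for SOX2.

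Within 5 kb, the shares of snRNA and snoRNA genes with a summit were higher than that of tRNA genes in each SOX15 library and in SOX2 replicate 1. In SOX2 replicate 2 both were lower than the tRNA share of 4.90%. At 1 kb the snoRNA share was smaller than at 5 kb in each library, and in SOX15 replicate 1 it lay near that of tRNA genes. Of 1002 other snRNA genes, 3.59%, 3.59% and 3.49% had a summit within 5 kb in SOX15 replicates 1, 2 and 3, against 4.49% and 4.69% in SOX2 replicates 1 and 2. Of 1339 other snoRNA genes the shares were 3.14%, 3.96% and 5.97% for SOX15, against 4.85% and 3.66% for SOX2. Within 1 kb, Rn7sk and Snord118 were counted too. Of 1003 snRNA genes, 35, 34 and 33 had a summit for SOX15 (3.49%, 3.39% and 3.29%). For SOX2 it was 36 and 37 (3.59% and 3.69%). Of 1340 snoRNA genes, 5, 15 and 15 had a summit that near for SOX15 (0.373%, 1.12% and 1.12%). For SOX2 it was 20 and 8 (1.49% and 0.597%). Of 408 tRNA genes, 1, 0 and 2 had it for SOX15 (0.245%, 0% and 0.49%). For SOX2 it was 1 and 11 (0.245% and 2.70%), so in SOX2 replicate 2 the tRNA share was above the snoRNA share. For other long noncoding RNA genes, the class of Malat1 and Neat1, only the 5 kb window was counted. Their shares there were 0.181%, 0.78% and 0.607% for SOX15, against 3.65% and 6.65% for SOX2. Genes of a class can lie side by side and share a peak, and classes differ in gene length. The snRNA class also takes in Rn7sk, read by RNA polymerase III, so snRNA against tRNA genes is no contrast of polymerases. The differences between classes were not tested.

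**Figure D4:**
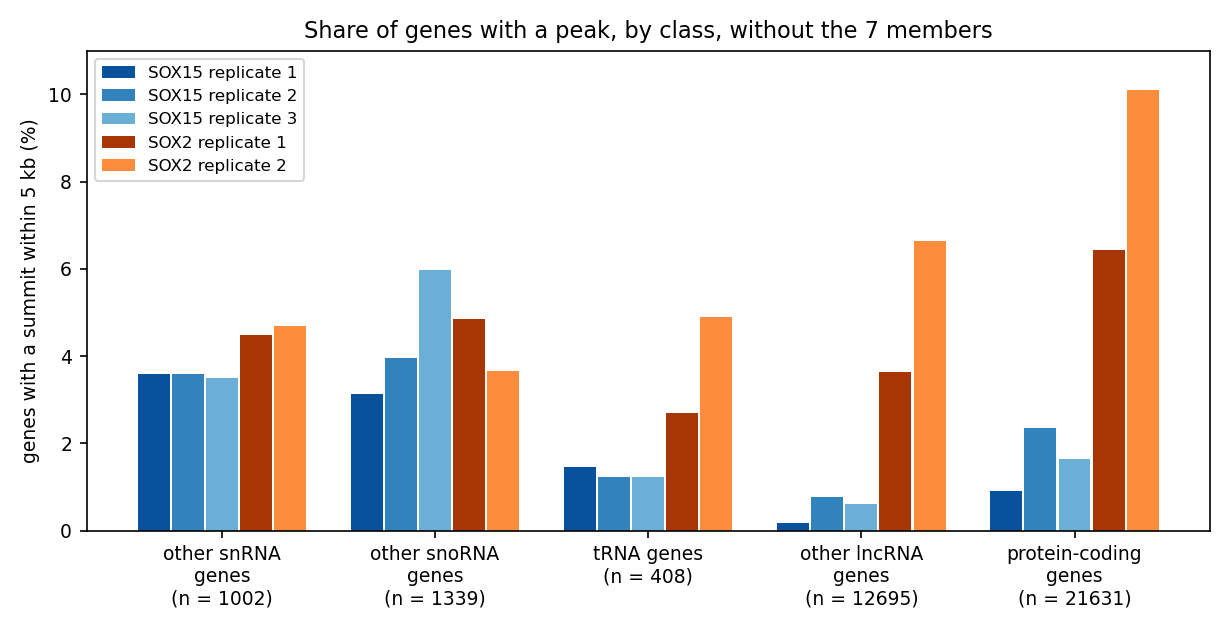
Share of genes in each class with a summit within 5 kb (vertical axis, percent) in the 5 libraries, leaving out the 7 genes described here; bars are shares of 1 library with no error. The SOX15 bars of snRNA and snoRNA genes (3.14% to 5.97%) stand above those of tRNA genes (1.23% to 1.47%). In SOX2 replicate 1 the snRNA and snoRNA bars (4.49% and 4.85%) also stand above the tRNA bar (2.70%). In SOX2 replicate 2 the tRNA bar (4.90%) stands above both.

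Of 16 other long noncoding RNA genes listed, 4 had a peak in at least 2 SOX15 libraries and the same 4 in both SOX2 libraries: Gas5, Snhg1, Xist and Tsix. Over all other genes these shares were 0.761% and 3.78%, and the list was chosen with earlier results known. Gas5, which hosts snoRNAs in its introns, had a strongest fold of 9.52, 6.46 and 15.5 in SOX15 replicates 1, 2 and 3, against 7.83 and 5.61 in SOX2 replicates 1 and 2. Snhg1, another snoRNA host, had 8.50, 6.46 and 9.75 in the SOX15 libraries, against 5.67 and 4.51 in the SOX2 libraries. Xist, whose RNA silences an X chromosome, overlaps its antisense partner Tsix, and they shared the same strongest peaks. The fold was 5.64 in SOX15 replicate 2 and 7.68 in SOX15 replicate 3, against 28.0 and 33.7 in the SOX2 libraries.

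Of 42 genes for protein partners of these RNAs and for factors of their promoters, 0 had a peak in at least 2 SOX15 libraries and 4 had a peak in both SOX2 libraries. Over all other genes, 0.761% and 3.78% did, and over protein-coding genes 1.05% and 5.76%. The 0 is therefore read as no trait of these genes, and the count of 4 was not tested. The 4 were Larp7, a 7SK-binding protein, among 7 genes of the 7SK complex and P-TEFb; Wrap53, which brings telomerase RNA to Cajal bodies, among 8 of telomerase; Rbm14, a paraspeckle protein, among 7 of paraspeckles; and Pou2f1, the OCT1 factor, among 10 of snRNA-type promoters. Of the 10 RNase P and MRP protein genes none had a peak in both SOX2 libraries. The fold at Rbm14 was 25.6 and 38.7 in SOX2 replicates 1 and 2, and at Larp7 it was 20.4 and 37.2. Larp7 also had a peak in SOX15 replicate 3, with a fold of 5.75. Wrap53 had 12.3 and 26.8, and Pou2f1 5.25 and 11.1, in SOX2 replicates 1 and 2.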

How the data were processed

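The submitters' processing notes name Bowtie2, MACS2, deepTools and mm10 but no version, and 1 list belongs to each ChIP library. Per peak the authors deposited a −log10 q-value, a −log10 p-value, a fold (linear ratio), a summit offset and an integer score. In 100.0% of peaks the score was the −log10 q-value multiplied by 10 and cut to a whole number. The sources used here do not give the control for peak calling. No read counts are in the lists, so the depth is unknown.

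Genes came from RefSeq (GRCm38.p6, the coordinates of mm10). A gene had a peak when a summit lay in it or within 5 kb. Percentiles rank the fold within a list. Sites are peaks of the 5 lists that overlap by at least 1 bp. The genes described and the lists around them were chosen with earlier results of these data known, so no test was run. Of a listed set, genes with a peak in at least 2 SOX15 or in both SOX2 libraries were named. Alternatives were a window of 1 or 10 kb, overlap with the gene, peaks with a −log10 q-value of at least 5, ranks by −log10 p, leaving out each library and, added after seeing the data, −log10 q at the ends of Malat1. Gene counting was tested on simulated data. Python 3.11.15, numpy 2.4.6, pandas 2.3.3 and matplotlib 3.10.9 were used.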

Additional observations from a re-analysis of the deposited data

Results flagged for a closer look

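At Malat1 the balance between the ends of the gene, measured by fold, ran opposite ways in the groups. The log2 ratio of the fold past the 3′ end over that at the 5′ end was 0.17, 0.47 and 0.40 in SOX15 replicates 1, 2 and 3 and -0.83 in SOX2 replicate 1, so the SOX15 mean of 0.35 lay 1.17 above the SOX2 value. SOX2 replicate 2 had a peak at the 5′ end and none past the 3′ end, so it gave no ratio. By −log10 q the same ratio was -0.15, 0.25 and -0.10 in SOX15 replicates 1, 2 and 3 and -2.16 in SOX2 replicate 1, so the opposite direction was lost in 2 of 3 SOX15 libraries. The difference was not tested.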

How the results depend on the processing

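The count of 3 of 7 genes with a peak, in each library, in at least 2 SOX15 libraries and in both SOX2 libraries, was 3 under every alternative tried: windows of 1 and 10 kb, overlap with the gene, a −log10 q-value of at least 5, and leaving out each library in turn. The genes were Malat1, Neat1 and Snord118 under each of the windows and the q-value limit, and 0 of the 3 RNA polymerase III genes had a peak. The windows could not change the count. In each library a summit lay inside these 3 genes or at most 81 bp from them, and at the other genes none lay nearer than 27.1 kb. Leaving out a library could not change it either, since each library had the same 3 genes. Of 58 recomputed counts and mean percentiles, 57 stayed within 1.5 times the count or 1 SD of the mean percentile. The counts that could not change are among these 57. So are the mean percentiles with windows of 1 and 10 kb and with the q-value limit. Those equalled the main values in each library, because each gene kept its strongest peak. Overlap with the gene also left the mean percentiles of both SOX2 lists unchanged. The 57 is therefore no measure of how stable the values are. The value that moved was the mean percentile of the 3 genes in SOX15 replicate 2, which was 84.9 by fold and 74.6 by −log10 p. At Malat1, −log10 q in place of fold, chosen after seeing the data, turned the log2 ratio of the 3′ over the 5′ end to -0.15 in SOX15 replicate 1 and -0.10 in SOX15 replicate 3. The order of the SOX15 above the SOX2 percentiles at Malat1 and Snord118 was lost by −log10 p. The cause of these changes was not tested. The labels link no SOX15 library to a SOX2 library and no test was run, so no analysis was paired. With 3 and 2 libraries, unknown depth and lists of unequal length, levels at these genes cannot be compared between SOX15 and SOX2, and genes with no peak may hold signal under the callers' thresholds.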
